A study of Drosophila melanogaster with 3 samples.

Results

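Transfer RNA (tRNA) genes of the nuclear genome were examined for binding of CG10431, a protein assayed as a transcription factor in Drosophila melanogaster embryos. The genes were all those that the Ensembl annotation of the dm6 assembly types as tRNA on the nuclear chromosomes, which gave 290 of 18336 genes. A further 22 mitochondrial tRNA genes were left out. Chromatin immunoprecipitation with sequencing (ChIP-seq) was performed on whole embryos aged 0 to 12 h, both sexes together, of 1 transgenic line in which CG10431 carries green fluorescent protein at its C terminus. The design holds 1 group, CG10431-GFP embryos, in biological replicates 1, 2 and 3, with no second condition. The label "biological replicate" is all that describes how the replicates were obtained, so the spread between them may be technical in part. Whole embryos mix all cell types, and the sources used here do not say what drives the fusion gene.

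The authors deposited 1 candidate list of 30000 entries for each replicate, 1 of the same length for the pooled replicates, and the 3314 pooled entries that passed an irreproducible discovery rate (IDR) threshold, a measure of how well entries recur. These 3314 are also the pooled entries of highest signal, with 186.69 as the lowest signal in the list and 186.66 as the highest outside it. Membership thus equals a cut by pooled signal, and recurrence is given below by replicate. A summit is the base of highest signal in an entry. A tRNA gene counted as bound if its start had a summit of the IDR list within 500 bp, and as a candidate if it had any pooled summit there. Other genes were counted in the same way, at any of their annotated transcript starts. A gene with several starts was thus searched in more windows than a gene with 1. In a replicate, which has no IDR list of its own, the 3314 entries of highest signal were called strong. The signal is the authors' own value with no stated scale, so it was compared within a list only. Read depth is unknown. Exact binomial 95% intervals on shares of genes or summits cover counting error only and treat genes that share a summit as independent.

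Transfer RNAs carry amino acids to the ribosome and are named here by amino acid, anticodon and copy (tRNA:Tyr-GTA-1-8). Their genes are transcribed by RNA polymerase III, which is recruited through promoter elements inside the gene, the A box and the B box, bound by the factor TFIIIC, while TFIIIB sits just upstream of the start. Transcription stops at a run of T after the gene. Many tRNA genes exist as identical copies, singly or in clusters and often in introns of other genes. The 290 genes held 95 distinct sequences, introns included. The B box core GTTCNANNC was present in 271 of the 290 genes (93.4%) and a TTTT within 50 bp after the end in 289 (99.7%), and both were present at all 18 bound genes.

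The following sequences are examples of the DNA at bound summits and of tRNA genes. The 4 windows reach 50 bp to either side of an IDR summit and were read from the RefSeq copy of the assembly on the plus strand, at chr3R:8669311-8669411, chr3R:22397068-22397168, chr3R:24112721-24112821 and chr2L:3172861-3172961. Capitals mark ACATG on either strand, a 5-letter sequence chosen after the windows had been seen. It occurs in 3 of these windows, where the nearest match lies 3, 12 and 9 bp from the summit, and not in the first. The 4 windows are examples, are not those of highest signal, and do not give the frequency of ACATG at bound summits. In windows that reach 100 bp to either side, it was found at 6 of the 13 IDR summits at tRNA genes (46.2%). The share was 32% at all IDR summits.
Window at tRNA:Tyr-GTA-1-8: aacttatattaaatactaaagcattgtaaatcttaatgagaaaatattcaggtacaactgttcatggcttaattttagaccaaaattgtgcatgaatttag
Window among the 3 Ser-GCT genes: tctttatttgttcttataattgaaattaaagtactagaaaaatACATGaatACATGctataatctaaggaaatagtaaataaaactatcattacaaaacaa
Window at tRNA:Leu-TAA-2-1: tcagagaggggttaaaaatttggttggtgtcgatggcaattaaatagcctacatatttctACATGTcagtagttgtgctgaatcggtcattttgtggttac
Window at tRNA:Ser-AGA-2-4: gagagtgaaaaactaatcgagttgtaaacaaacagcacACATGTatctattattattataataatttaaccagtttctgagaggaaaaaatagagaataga

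The genes below are given on their own strand, with the B box core in capitals. ACATG is not marked in them, although it also occurs in the tyrosine gene. They lie at chr3R:8669081-8669174 (minus strand, with an intron) and chr3R:22397572-22397653 (plus strand). The serine gene has the same sequence as its neighbour tRNA:Ser-GCT-2-4 at chr3R:22396799-22396880 (minus strand), and a summit shared by both lies outside either gene.
Gene tRNA:Tyr-GTA-1-8: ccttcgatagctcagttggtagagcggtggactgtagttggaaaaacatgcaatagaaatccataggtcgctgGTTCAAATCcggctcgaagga
Gene tRNA:Ser-GCT-2-5: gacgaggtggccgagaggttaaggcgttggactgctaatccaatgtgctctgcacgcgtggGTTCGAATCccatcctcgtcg

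Binding at tRNA genes was less frequent than at other genes, although candidate summits were not. Of the 290 tRNA genes, 148 (51%, 95% interval 45.1 to 56.9) had a candidate summit within 500 bp, against 7581 of 18046 other genes (42%). Of those 148, 18 were bound (12.2%, 95% interval 7.37 to 18.5), against 2267 of the 7581 other genes (29.9%) and 2072 of 6532 protein-coding genes (31.7%). Over all annotated genes, bound or not, 6.21% of tRNA genes were bound and 12.6% of other genes. Other genes could have several starts and so several windows. The part of this in these differences, and in those by replicate below, was not tested. Neighbouring tRNA genes can share a summit, so distinct summits were counted as well: 13 of 126 at tRNA starts were in the IDR list (10.3%, 95% interval 5.61 to 17), against 1788 of 9054 summits at the starts of other genes (19.7%). Among other noncoding classes, 17 of 52 snoRNA genes with a candidate summit were bound (32.7%), and 170 of 949 genes typed as ncRNA, a class that includes the long noncoding RNAs (17.9%). Over all genes of a class, the bound share was 9.38% for snRNA, 6.32% for snoRNA, 5.15% for ncRNA, 1.47% for pseudogenes and 0 for rRNA. The 6.21% of tRNA genes lay within the range of these classes and below the 14.8% of protein-coding genes.

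Each replicate gave the same order. In replicate 1, 11 of 125 tRNA genes with an entry had a strong one (8.8%), against 28.4% of other genes. In replicate 2 it was 16 of 131 tRNA genes (12.2%), against 29.6% of other genes. In replicate 3 it was 23 of 157 tRNA genes (14.6%), against 29.8% of other genes. The 3 tRNA values lay below all 3 values of other genes. The means were 11.9% ± 2.94 for tRNA genes and 29.3% ± 0.734 for other genes (SD, n = 3 each), a difference of -17.4 ± 2.25 percentage points (exact two-sided sign-flip permutation test over replicates, p = 0.25, the smallest that this test can give with 3 replicates). The replicates share 1 control, which is not analysed here. Keeping only IDR entries that were strong in both remaining replicates left 16, 10 and 8 bound tRNA genes without replicate 1, 2 or 3.

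**Figure D1:**
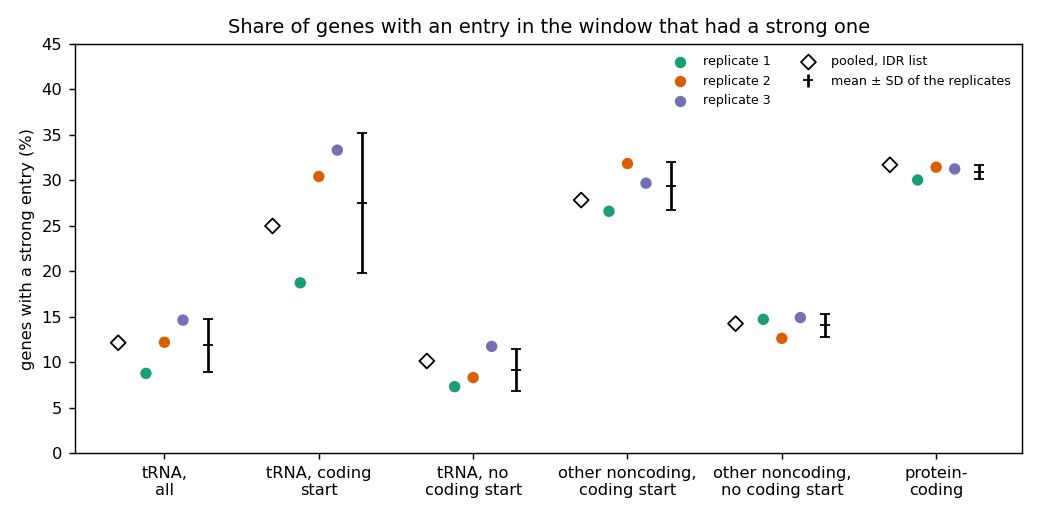
Share of genes (%) with a strong entry within 500 bp, among genes with any entry there, by gene class. Filled points are replicates 1 to 3, bars their mean ± SD, and open diamonds the pooled list, where a strong entry is an IDR entry. The tRNA genes as a whole lie between 8.8% and 14.6% in the replicates, below the 30.1% to 31.5% of protein-coding genes.

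The strongest tRNA summits lay at places where a protein-coding gene also starts. At tRNA:Tyr-GTA-1-8 (FBgn0012024, 3R, 8669081 to 8669174, minus strand), the IDR entry spanned 8669232 to 8669463 with a signal of 822.1. It ranked 193 in the pooled list and 143, 256 and 256 in replicates 1, 2 and 3, so it was high in every replicate. Its summit lay 187 bp upstream of the tRNA gene, in an intron inside the spans of p and CG8036, and 257 bp upstream of a start of CG8036. At tRNA:Phe-GAA-1-2 (FBgn0052740, X, 6744471 to 6744543, minus strand), the entry at 6744098 to 6744369 had a signal of 514.2 and a pooled rank of 532. It ranked 622, 570 and 340 in replicates 1, 2 and 3. This summit lay 312 bp downstream of the tRNA start but 7 bp downstream of the start of RpL17, which encodes a protein of the large ribosomal subunit.

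The 3 other bound genes with a coding start at the summit were weaker. At tRNA:Trp-CCA-2-2 (FBgn0050227, 2R, entry 18639055 to 18639478) the signal was 384.6, and the ranks were 695, 914 and 1575 in replicates 1, 2 and 3. The summit there lay 290 bp upstream of the tRNA gene and 3 bp downstream of the start of CG30122. At tRNA:Leu-TAA-2-1 (FBgn0053536, 3R, entry 24112559 to 24112982) the signal was 266.6, with ranks of 3319, 2647 and 1034 and CG13605 starting 382 bp away. At tRNA:His-GTG-1-3 (FBgn0050251, 2R, entry 12335034 to 12335457) the signal was 239.2, with ranks of 2011 and 2898 in replicates 2 and 3, no entry within 250 bp in replicate 1, and the start of CG8490 70 bp away. The last 2 of these genes were thus outside the strong entries of replicate 1.

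The remaining 13 bound genes shared 8 summits with no coding start within 500 bp, and serine genes led them. A single summit served tRNA:Ser-TGA-2-1 and tRNA:Ser-TGA-1-1 (FBgn0050202 and FBgn0050201, 2R, entry 23072157 to 23072580, signal 305.2), which point away from each other, 212 and 269 bp upstream of them. It ranked 2845, 1942 and 874 in replicates 1, 2 and 3. Another served tRNA:Ser-GCT-1-1, tRNA:Ser-GCT-2-4 and tRNA:Ser-GCT-2-5 (FBgn0051167, FBgn0051162 and FBgn0051166, 3R, entry 22396906 to 22397329, signal 284.8) and ranked 3117, 1415 and 1361. It was 238 bp upstream of Ser-GCT-2-4, 454 bp upstream of Ser-GCT-2-5 and 143 bp downstream of the start of Ser-GCT-1-1. Both serine summits were strong in all 3 replicates. The divergent genes tRNA:Arg-CCT-1-2 and tRNA:Arg-CCT-1-3 (FBgn0050212 and FBgn0053538, 2R, entry 20000354 to 20000777, signal 247.3) had theirs 198 and 253 bp upstream, with ranks of 3569, 2136 and 1592. Summits that lay upstream of tRNA genes on both strands numbered 3 of the 13 IDR summits (23.1%), these 3, and 3 of the 113 other candidates (2.65%), a count made after the values were seen and not tested.

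The last 5 summits were the weakest. They lay at tRNA:Ala-TGC-2-1 (FBgn0011879, 2R, 17392493 to 17392916, signal 238.2), tRNA:Ile-AAT-1-9 (FBgn0050215, 2R, 19714855 to 19715278, 235.9), tRNA:Ser-AGA-2-4 (FBgn0011984, 2L, 3172699 to 3173122, 230.3), tRNA:Glu-CTC-2-2 (FBgn0050220, 2R, 19728979 to 19729402, 218.6), and at tRNA:Ile-AAT-1-3 with tRNA:Leu-CAA-2-1 (FBgn0011881 and FBgn0011909, 2R, 13430265 to 13430688, 189.9) in an intron of ATP8A, which encodes a phospholipid flippase. The first 2 lay near the edge of the window, 490 bp downstream and 498 bp upstream of the tRNA start, and ranked 4584 and 3547 in replicate 2. The other 3 ranked 4165, 6831 and 4740 in replicate 1, in the order given. Each of these 5 was strong in 2 replicates and not in the remaining one.

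**Figure D2:**
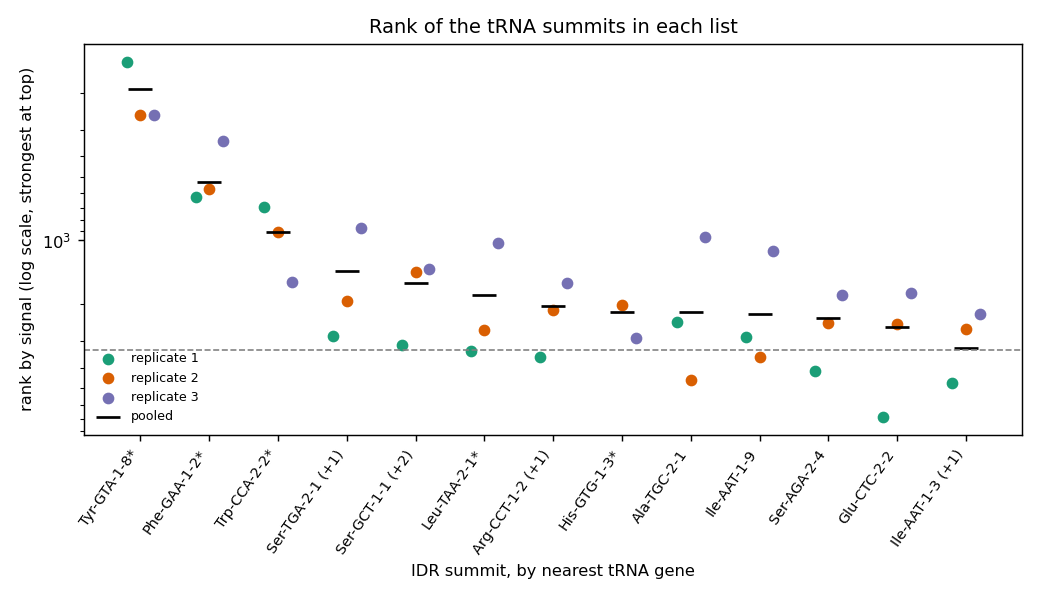
Rank by signal (log axis, strongest at the top) of the 13 IDR summits at tRNA genes in replicates 1, 2 and 3 (points) and in the pooled list (black bars). The dashed line is rank 3314, an asterisk marks a protein-coding start within 500 bp of the summit, and "(+1)" or "(+2)" counts further tRNA genes in the window. The 3 leftmost summits, all with an asterisk, rank above the line in every list, and 6 summits have a replicate 1 rank below it or no replicate 1 entry.

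The tRNA summits were spread over the IDR list, between ranks 193 and 3227. Their signal had a median of 247.3 (range 189.9 to 822.1), against 280.0 for all IDR entries (range 186.7 to 69279), and 8 of the 13 lay below that median, which by definition divides all IDR entries evenly. The difference in median was not tested. The 5 with a coding start had a median of 384.6, and the 8 without one 237.1, with 305.2 as the highest of these. Of the 13, 5 were strong in all 3 replicates (61.2% of all IDR entries were) and 8 in 2. By replicate, 7, 11 and 13 of them were strong in replicates 1, 2 and 3, against 82.2%, 86.2% and 79.5% of all IDR entries. Of the 8 below the median, 2, 6 and 8 were strong, against 65.8%, 72.7% and 61.7% of the 1657 IDR entries below it. Outside the IDR list, the candidates at tRNA genes had a median signal of 67.8, close to the 69.7 of all such candidates.

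Some unbound tRNA genes missed the IDR list by little. The lowest signal in that list was 186.7. The nearest tRNA gene under it was tRNA:Gln-TTG-2-1 (FBgn0052493, signal 183.1, ranks 2929, 3412 and 12015 in replicates 1, 2 and 3), followed by tRNA:Glu-CTC-2-3 (FBgn0052460, 177.7) and tRNA:Glu-TTC-1-5 (FBgn0011849, 177.6, ranks 1822, 5837 and 3092). Then came tRNA:Leu-TAA-4-1 (FBgn0051130, 170.5) and by tRNA:Leu-CAG-1-6 and tRNA:Leu-CAG-1-5, which share 1 summit of signal 156.1. Of these, tRNA:Glu-TTC-1-5 was the one that was strong in 2 replicates. Over all 290 genes, 266 had a strong entry within 500 bp in none of the replicates, and 8 had one in all 3, all of them bound. The bound tRNA:Ile-AAT-1-9 is among the 266, since the matching replicate summits fell outside its window.

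Bound summits lay outside tRNA genes, although some IDR entries reached over one. None of the 13 IDR summits was inside a tRNA gene or within 100 bp of a tRNA start, a count of 0 with an exact 95% upper limit of 24.7%. The nearest lay 122 bp away. The entries are wider than their summits. Those at tRNA:Ser-GCT-1-1, tRNA:Ser-AGA-2-4 and tRNA:Ile-AAT-1-3 covered the whole tRNA gene. Those at tRNA:Leu-TAA-2-1, tRNA:His-GTG-1-3 and tRNA:Arg-CCT-1-2 covered part of it. Among all 126 candidates at tRNA genes, 40 (31.7%) were within 100 bp and 22 were inside a tRNA gene, these 22 with signals between 46.8 and 156.1 and a best pooled rank of 4518. At protein-coding starts, 47.5% of 1698 IDR summits and 42% of 8290 candidates were within 100 bp. The replicates' strong entries had 1 of 8, 1 of 11 and 1 of 17 summits within 100 bp of a tRNA start in replicates 1, 2 and 3, and 1, 1 and 0 inside a gene. These counts are small, and fragments of 200 to 800 bp limit how closely a summit places a protein. Of the 126 candidates, 61 were upstream of the tRNA start and 65 downstream (48.4% upstream), against 60.9% upstream at coding starts. Of the 13 IDR summits, 8 were upstream (61.5%), against 73.2% of IDR summits at coding starts. Of the 8 IDR summits with no coding start, 4 were upstream. By annotation, 9 of the 13 IDR summits were intergenic, 2 were in introns and 2 in 5′ UTRs. Of the 126 candidates, 53 were intergenic, 40 were in introns, 22 in noncoding exons and 6 in 5′ UTRs. The difference was not tested.

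**Figure D3:**
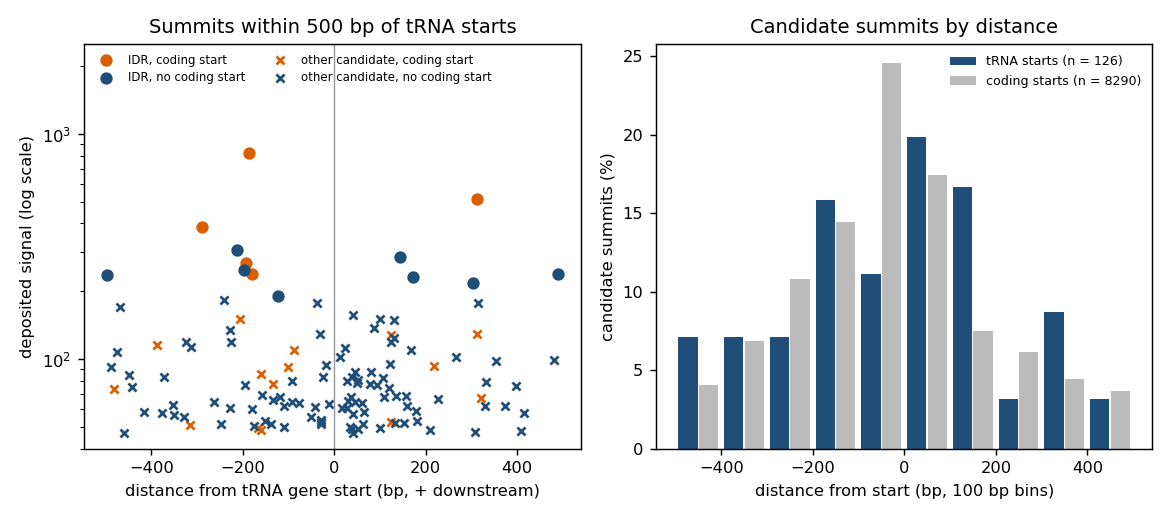
Left, deposited signal (log axis) of the 126 candidate summits within 500 bp of a tRNA start against distance from that start in bp (positive is downstream), with IDR summits as filled circles, other candidates as crosses, and orange for a protein-coding start within 500 bp of the summit. Right, share of candidate summits (%) in bins of 100 bp around tRNA starts (n = 126) and protein-coding starts (n = 8290). The 13 circles leave the 100 bp on either side of the tRNA start empty.

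The presence of a coding start at the same summit went with more frequent binding. Where a gene had several candidate summits, the strongest was used. Of 20 tRNA genes whose strongest candidate summit also had a coding start within 500 bp, 5 were bound (25%, 95% interval 8.66 to 49.1), against 13 of 128 with none at that summit (10.2%, 95% interval 5.52 to 16.7). Counted by distinct summits, 5 of 20 with a coding start were in the IDR list (25%), against 8 of 106 without one (7.55%). In replicate 1, 3 of 16 tRNA genes with a coding start had a strong entry, against 8 of 109 with none. In replicate 2 it was 7 of 23 against 9 of 108, and in replicate 3 it was 7 of 21 against 16 of 136. The share was thus higher with a coding start in all 3 replicates, by 18.4 ± 6.02 percentage points (27.5% ± 7.72 with and 9.15% ± 2.32 without, SD, n = 3 each, exact two-sided sign-flip permutation test, p = 0.25, again the smallest this test can give). In all, 7 differences were tested over replicates in this way, 5 of them added after results had been seen. Of the 7, 6 gave p = 0.25 (0.292 with Benjamini-Hochberg adjustment over the 7 permutation tests) and 1 gave p = 0.75.

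Other noncoding genes showed the same split. With a coding start at the summit 93 of 334 were bound (27.8%), and with none 102 of 715 (14.3%). Among genes with no coding start, tRNA genes were below other noncoding genes in each replicate, with differences of -7.40, -4.31 and -3.16 percentage points in replicates 1, 2 and 3 (9.15% ± 2.32 against 14.1% ± 1.27, SD, n = 3 each, exact sign-flip permutation test, p = 0.25). Among genes with a coding start, the difference of tRNA minus other noncoding genes was -7.86, -1.42 and 3.63 points, and so had no common sign (27.5% ± 7.72 against 29.4% ± 2.64, exact sign-flip permutation test, p = 0.75). Both tests were added after results had been seen.

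By amino acid, serine genes held the most bound members. Of 20 serine genes, 10 had a candidate summit and 6 were bound, through 3 summits, and in replicates 1, 2 and 3 it was 5 of 10, 6 of 11 and 6 of 10 that had a strong entry. These 6 have the anticodons TGA (2 of 2 genes), GCT (3 of 6) and AGA (1 of 8), while none of 4 CGA genes was bound. Isoleucine, leucine and arginine had 2 bound genes each, of 8, 15 and 14 with a candidate summit. In the same order, 1, 2 and 2 genes had a strong entry in replicate 2 and 1, 3 and 2 in replicate 3. In replicate 1 none had one. Alanine, glutamate, histidine, phenylalanine, tryptophan and tyrosine had 1 each. No bound gene was found for asparagine, aspartate, cysteine, glutamine, glycine, lysine, methionine (initiator or elongator), proline, threonine or valine, and among these threonine had 11 genes with a candidate summit, proline 10, and asparagine and glycine 8 each. Beside the 12.2% bound over all tRNA genes with a candidate summit (18 of 148), these absences say little. Among these amino acids, 2 aspartate genes had a strong entry in replicate 3 and 1 glutamine gene in replicate 1. The others had none in any replicate. The 1 selenocysteine gene had no candidate summit. Since genes of 1 amino acid often lie side by side, these counts are not of independent units.

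**Figure D4:**
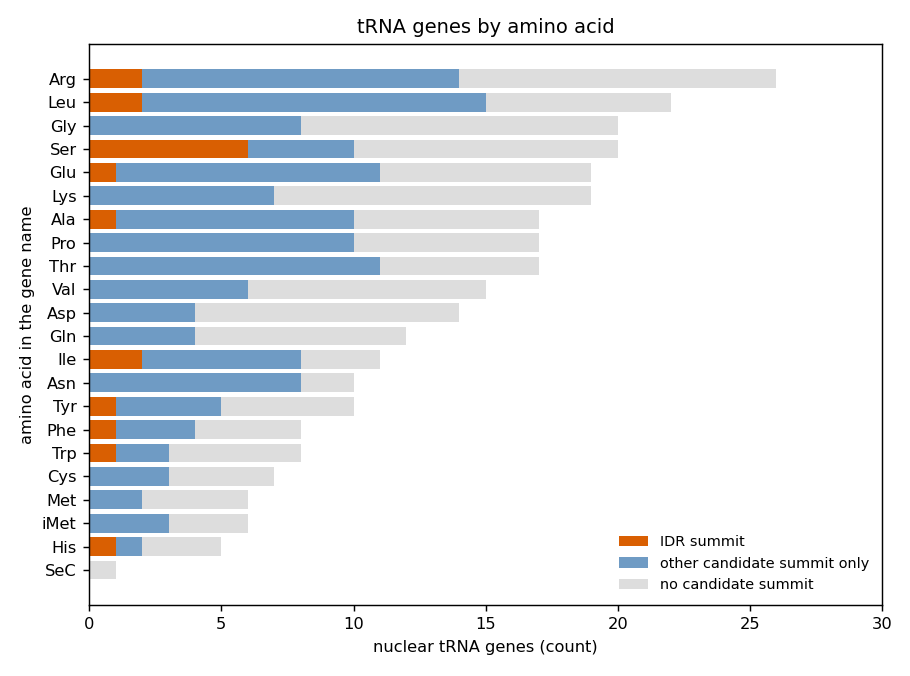
Number of nuclear tRNA genes by the amino acid in the gene name, split into genes with an IDR summit (orange), with another candidate summit only (blue) and with no candidate summit (grey). Serine has 6 orange genes of 20, and no other amino acid has more than 2.

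Genes whose sequence, introns included, occurs once in the set were bound more often than repeated ones. Of 25 such genes with a candidate summit, 7 were bound (28%, 95% interval 12.1 to 49.4), against 3 of 32 with 2 to 4 copies (9.38%) and 8 of 91 with 5 or more (8.79%). The 7 are tRNA:Tyr-GTA-1-8, tRNA:Leu-TAA-2-1, tRNA:Leu-CAA-2-1, tRNA:Ala-TGC-2-1, tRNA:Ser-TGA-1-1, tRNA:Ser-TGA-2-1 and tRNA:Ser-GCT-1-1. Both Ser-TGA genes share 1 summit. The summits of Ser-GCT-1-1 and Leu-CAA-2-1 also serve repeated genes, so these summits count on both sides of the comparison. This split was not counted by distinct summits. In replicates 1, 2 and 3, 30%, 24% and 32% of single-copy genes with an entry had a strong one, against 4.76%, 9.43% and 11.4% of genes with 2 or more copies (28.7% ± 4.16 against 8.52% ± 3.39, SD, n = 3 each), and the ranges did not overlap (exact sign-flip permutation test, p = 0.25). Genes of 1 name number whose introns differ, such as tRNA:Tyr-GTA-1-8 and tRNA:Leu-CAA-2-1 with their numbered copies, count as single here. With copies counted by the number in the gene name, 5 of 18 single-copy genes were bound (27.8%), without those 2, and 13 of 130 others (10%), and the replicates gave 30.5% ± 5.19 against 9.36% ± 3.45 (SD, n = 3 each). Candidate summits were present at 48.1% of single-copy genes and 50.6% of genes with 5 or more copies. The sources used here do not say how reads that match several copies were treated, and its part in the difference was not tested.

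Clusters were formed from tRNA genes with starts up to 5 kb apart, which gave 144 clusters, 76 of them lone genes. The 13 IDR summits fell in 13 clusters, 3 of them lone genes, 8 of 2 to 4 genes and 2 of 5 or more. Of genes with a candidate summit, 15 of 120 in clusters (12.5%) and 3 of 28 lone ones (10.7%) were bound, and the replicates gave 12.5% ± 2.97 and 9.04% ± 2.34 (SD, n = 3 each). The largest clusters, of 11 genes each (2R, 6161535 to 6171759, mainly asparagine, arginine and lysine genes, and 3R, 17617761 to 17631750, with alanine, proline, threonine and valine genes), had 9 and 8 genes with a candidate summit and 0 bound. Beside the 12.2% bound over all tRNA genes with a candidate summit, these counts of 0 say little. The 2 bound clusters of 5 or more, both of 7 genes, were the isoleucine and leucine cluster in ATP8A and the glutamate and initiator methionine cluster with tRNA:Glu-CTC-2-2. By chromosome arm, 11 of 63 genes with a candidate summit on 2R were bound (17.5%), 5 of 46 on 3R, 1 of 15 on 2L, 1 of 6 on X and 0 of 18 on 3L, and the replicates gave 15.8% ± 3.88 on 2R and 9.37% ± 2.34 on the other arms (SD, n = 3 each). The comparisons by copy number, cluster and arm were made after results had been seen, and the exact sign-flip permutation test gave p = 0.25 for each.

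At larger distances, the order of tRNA genes and other genes depended on the distance taken. The median distance to the nearest IDR summit was 12377 bp for tRNA genes and 11767 bp for other genes. Within 1000 bp of one were 10.7% of tRNA genes and 15.5% of other genes, and within 5000 bp 29.3% of tRNA genes and 32.1% of other genes. Within 20000 bp the order was the opposite, with 65.9% of tRNA genes and 62.8% of other genes. These distances were not tested.

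Genes on a list for RNA polymerase III, its factors and tRNA maturation were bound about as often as protein-coding genes in general. The list also holds genes named for subunits of RNA polymerases I and II, so it is not limited to genes that act in making tRNAs alone. Of 42 listed genes for RNA polymerase III, its factors and tRNA maturation, 40 were matched, 28 had a candidate summit and 9 were bound (32.1%, against 31.7% of protein-coding genes). The strongest were Polr3E, a subunit of RNA polymerase III (FBgn0028402, signal 648.0, ranks 455, 394 and 245 in replicates 1, 2 and 3), and Bdp1 and Brf, subunits of TFIIIB (FBgn0032512 and FBgn0038499, signals 475.6 and 419.6), followed by the splicing endonuclease gene Tsen34 (FBgn0053260, 343.6), l(2)37Cd (FBgn0086445, 337.5) and Pbp49 (FBgn0260398, 290.1). All 6 were strong in each replicate. Among 110 other genes that RNA polymerase III transcribes, 5 had a candidate summit and 1 was bound, snRNA:7SKa (FBgn0065099, signal 522.3, ranks 959, 318 and 966), whose summit lay 258 bp downstream of its start. None of the 100 annotated 5S rRNA genes, which lie in a repeated array, had a candidate summit.

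The DNA at bound tRNA summits was searched for TACATGG on both strands in windows that reach 100 bp to either side. It was found in 0 of the 13 windows (exact 95% upper limit 24.7%) and in 256 of the 3314 windows at all IDR summits (7.72%). Its inner part ACATG, which every TACATGG contains, was found in 6 of the 13 (46.2%), 32% of all IDR windows, 31% of the 113 other candidates at tRNA genes and 24.9% of all other candidates, and was searched for only after the windows had been seen. The 13 windows were lower in G and C (mean 34.3%) than all IDR windows (38.4%), and a match says only that the letters occur there.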

How the data were processed

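The files hold peak lists only. Each entry carries a signal, a peak-caller value that the authors deposited without stating its scale. Entries were called against 1 control shared by the replicates, per the file notes, and the build is dm6 per the labels. For the aligner and the peak caller, the sources used here give no name. The free-text label speaks of an input, while the assay, antibody and file notes describe a ChIP, and the samples were treated as ChIP.

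Coordinates are 1-based. Gene starts came from Ensembl release 115, and all 290 tRNA genes had the same coordinates in RefSeq. A replicate entry matched a summit within 250 bp. Shares were compared over replicates by sign-flip permutation (Python 3.11.15, numpy 2.4.6, pandas 2.3.3, scipy 1.17.1), and the counting steps were tested on simulated data. Text names every bound tRNA gene, the 6 unbound ones of highest signal, the largest clusters, and up to 6 bound genes per list. The members, lists and comparisons were chosen with earlier results of these data known. Alternatives varied windows, strong entries, cluster gaps and replicates.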

Additional observations from a re-analysis of the deposited data

How the results depend on the processing

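The share of tRNA genes with a candidate summit that were bound, 12.2%, was 9.0% with a window of 250 bp (29.6% of other genes), 16.1% with 1000 bp (31.0%), 5.41% with the stronger 1657 IDR entries (15.9%) and 5.41% with the IDR entries strong in every replicate (18.5%). Requiring a strong entry in both of the remaining replicates gave 16, 10 and 8 bound genes without replicate 1, 2 or 3, or 5.41% to 10.8%, against 20.2% to 21.7% of other genes, so the number of bound genes depends on which replicates are required. This step filters the deposited IDR list, which was called with all 3 replicates. The share of tRNA genes with a candidate summit, 51%, was 34.5% with 250 bp and 66.2% with 1000 bp, as fewer or more summits fall in the window. The differences from other genes, by coding start and by copy number kept their sign in the alternatives run. The differences by arm, by cluster and from other noncoding genes were not rerun. The replicates' difference from other genes stayed between -20.8 and -7.01 percentage points in the alternatives run, and the difference by coding start between 9.53 and 25.1. The differences were taken within each replicate, and there was no second group for a replicate block. Counting copies by the number in the gene name, chosen after seeing the data, changed the difference of single over repeated genes little (21.2 against 20.1 percentage points). Read depth is unknown, so it cannot be said how far depth limited the calls, and the exact sign-flip test cannot give a p below 0.25 with 3 replicates.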
